A study of Mus musculus with 9 samples.

Results

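The receptor chains for IL-4 and IL-13 and the JAK kinases bound to them are 7 genes of the 55401 gene IDs in the count table: Il4ra, Il13ra1, Il2rg, Jak1, Jak2, Jak3 and Tyk2. They were chosen by symbol, as the step directly upstream of STAT6. All 7 had counts in every library and entered the test. The study sequenced poly(A) RNA of primary peritoneal macrophages drawn to the peritoneum by thioglycollate, an irritant broth. Mice were homozygous for either of a pair of Stat6 alleles or were WT. SE mice (Stat6S807E/S807E) carry glutamate at serine 807 of STAT6 and SA mice (Stat6S807A/S807A) carry alanine there. Each genotype had 3 libraries. The alleles are carried in the whole animal, so other cells of the peritoneum had them too, and the labels give no added IL-4 or IL-13. The series title ties phosphorylation of this serine to protection of macrophages from senescence. Whether the libraries of a genotype came from separate mice is not given in the labels, so the p-values below measure only the spread between these libraries.

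IL-4 is read through a pair of receptors that share the IL4Rα chain, the product of Il4ra. In the type I receptor IL4Rα pairs with the common gamma chain, from Il2rg, and the kinases JAK1 and JAK3 bind these chains. In the type II receptor, which also reads IL-13, it pairs with IL13Rα1, from Il13ra1, which brings TYK2 or JAK2. The activated kinases phosphorylate tyrosines of IL4Rα, STAT6 docks there and is phosphorylated in turn, and macrophages that respond take on the alternatively activated state.

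The stretches just upstream of the annotated start of the genes that the comparisons below turn on are shown with a stretch of Cish, a feedback inhibitor that rose in SE. All are RefSeq sequences of GRCm38.p6, 5′ to 3′ along the gene, and cover chrX:36111858-36112107 (plus strand) for Il13ra1, chrX:101268256-101268505 (minus strand) for Il2rg, chr19:29251553-29251802 (plus strand) for Jak2 and chr9:107296654-107296683 (plus strand) for Cish. Capitals mark a match to either of the STAT patterns searched, TTCNNNNGAA (the spacing that STAT6 prefers) or TTCNNNGAA (the spacing of the other STAT proteins).
Il13ra1: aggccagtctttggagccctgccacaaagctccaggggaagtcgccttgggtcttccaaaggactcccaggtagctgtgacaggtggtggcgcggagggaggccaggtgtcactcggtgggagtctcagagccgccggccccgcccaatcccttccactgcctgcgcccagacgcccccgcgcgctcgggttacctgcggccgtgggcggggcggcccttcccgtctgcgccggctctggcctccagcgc
Il2rg: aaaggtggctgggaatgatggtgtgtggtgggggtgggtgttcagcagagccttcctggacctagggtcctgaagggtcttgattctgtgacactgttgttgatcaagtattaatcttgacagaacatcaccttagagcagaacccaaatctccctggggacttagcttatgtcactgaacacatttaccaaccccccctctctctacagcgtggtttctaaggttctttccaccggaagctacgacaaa
Jak2: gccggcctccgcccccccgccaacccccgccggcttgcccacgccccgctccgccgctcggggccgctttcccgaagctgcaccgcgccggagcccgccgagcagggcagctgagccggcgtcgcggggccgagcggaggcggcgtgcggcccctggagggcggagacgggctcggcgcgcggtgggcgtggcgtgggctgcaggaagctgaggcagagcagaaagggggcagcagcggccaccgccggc
Cish: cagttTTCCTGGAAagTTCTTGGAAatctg
Both patterns read the same on either strand, so each search covers both strands, and matches of the patterns may overlap. Windows of 300 bases, 250 before the start and the rest after it, were found for 7 of the 7 genes. TTCNNNNGAA was in 0 of the 7 windows and in 6.95% of all 32851 windows of that table, and TTCNNNGAA was in 0 of the 7 and in 8.3% of all. The Cish stretch was cut around its matches and held TTCNNNGAA in 2 places. These lie 0 and 11 bases from the start of the gene, and so not upstream of it as the other stretches do. The windows of Stat6 and Socs1, which also rose in SE, held 0 matches of either pattern. Socs2, which rose in SE too, had no window and was not searched. A match is a run of letters and not a shown site, and these windows say nothing of sequence farther away.

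The libraries held 17286617 to 24618608 counts. Levels are given in CPM, counts scaled to library size, and 3 counts are worth 0.122 to 0.174 CPM. Macrophage markers were high in all 9 libraries, with a summed level of 18101 to 20236 CPM in SE, 18721 to 19428 CPM in SA and 18535 to 22716 CPM in WT. Most of it was Lyz2 and Csf1r (means of 10720 and 5111 CPM), so the sum says little of the other markers. Cd14 had 1182, 924 and 1121 counts in SE, 2443, 1908 and 1869 in SA and 1992, 1327 and 1784 in WT. Cd68 had 38586, 32928 and 38504 counts in SE, 38334, 31486 and 34063 in SA and 41793, 36208 and 38746 in WT. Of the 11 T and NK cell markers, Cd3e, Cd3g, Nkg7 and Ncr1 were at 0 in every library, and the list summed to 4.30 to 5.22 CPM in SE, 5.73 to 6.10 CPM in SA and 5.93 to 6.51 CPM in WT, with Cd4 its most abundant gene. Mast cell and basophil markers summed to at most 0.606 CPM with 4 of 7 at 0, and dendritic cell markers to 1.31 to 2.60 CPM. Eosinophil markers summed to 20.4 to 28.7 CPM with Ear1 and Ear6 at 0, and endothelial markers to 331 to 458 CPM, nearly all of it Vwf. Mesothelial and fibroblast markers stood apart in SA, at 5.96 to 9.61 CPM in SE, 34.8 to 39.5 CPM in SA and 2.60 to 3.96 CPM in WT (7 of 10 detected, Msln, Krt19 and Lrrn4 at 0). Most of these counts were of the collagen genes Col1a1 (368 to 420 counts in SA) and Col1a2 (264 to 319 counts in SA). Neutrophil markers summed to 43.6 to 44.5 CPM in SE, 35.8 to 40.0 CPM in SA and 51.8 to 62.4 CPM in WT, nearly all of it Mmp8, with Ly6g and Retnlg at 0. Their part in the values below was not tested. In these bulk libraries fewer cells of a type and less RNA per cell cannot be told apart.

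On the scale of CPM per kilobase of exon, the mean level over the 9 libraries was 37.2 for Jak1, 33.1 for Il2rg, 23.4 for Tyk2, 21.5 for Jak2, 12.8 for Il4ra, 6.19 for Jak3 and 1.91 for Il13ra1. These levels put Jak1 at the percentile 90.6 of all tested genes, Il4ra at 73.7, Jak3 at 56.8 and Il13ra1 at 31.9. Over the libraries Jak1 (35.3 to 38.5 CPM per kilobase) overlapped Il2rg (29.6 to 37.8), and Tyk2 (21.5 to 26.1) overlapped Jak2 (18.5 to 26.0), so neither of these neighbours in the order was apart beyond its spread. Il4ra (11.4 to 14.5), Jak3 (5.57 to 7.36) and Il13ra1 (1.33 to 2.54) each kept to a range of their own. With the exon bases that overlap other genes left out, Il2rg had 47.6 CPM per kilobase and lay above Jak1 at 37.2. With the longest transcript as length, Jak1 had 54.8, Il2rg 47.3, Tyk2 33.3 and Jak2 21.5 CPM per kilobase, and Tyk2 (30.5 to 37.1) no longer overlapped Jak2.

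Transcripts of the common gamma chain were measured far above those of the chain that replaces it in the type II receptor. The ratio of Il2rg to Il13ra1, in CPM per kilobase, was 21.1, 19.6 and 25.05 in the SE libraries, 17.6, 14.1 and 17.3 in the SA libraries and 13.1, 17.9 and 15.5 in the WT libraries. Every SE library lay above every SA and WT library in this ratio. The ratio of transcripts says nothing of receptor complexes at the surface.

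**Figure D1:**
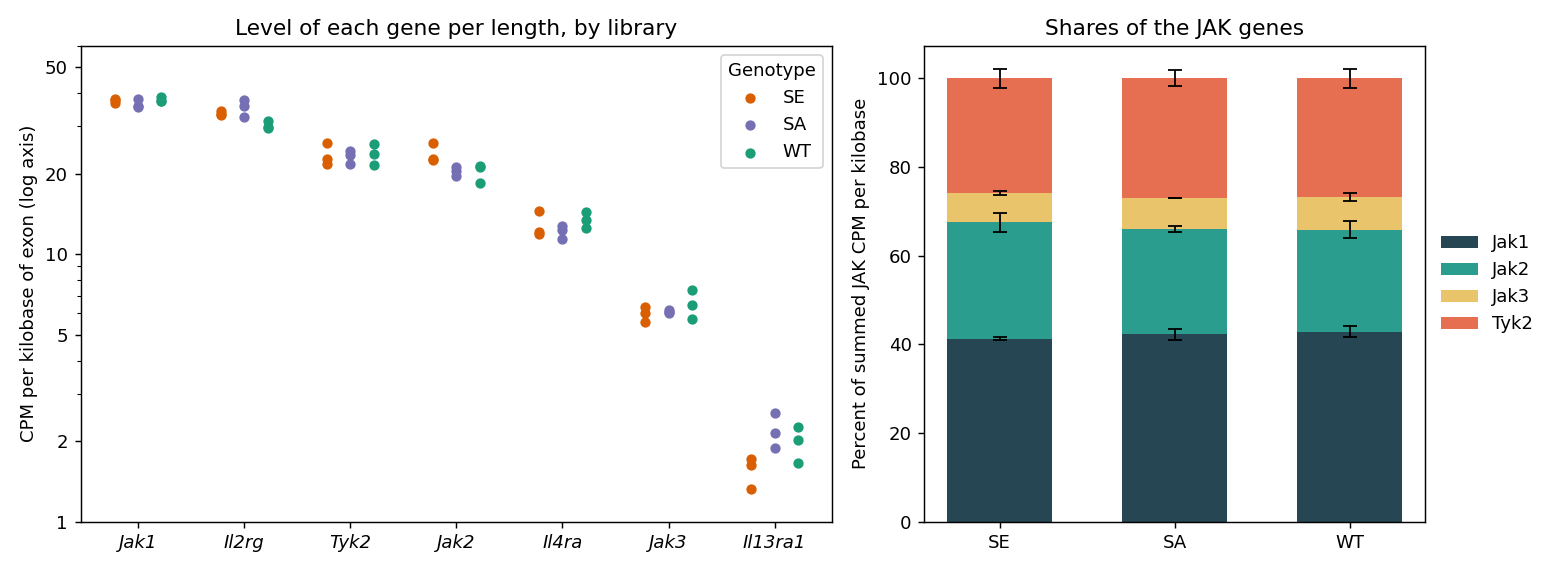
Left, level of each gene in CPM per kilobase of exon (log axis) in each of the 9 libraries, coloured by genotype; right, mean share of each kinase gene in the summed level of the 4 JAK genes, with SD as bars (n = 3). Jak1 and Il2rg lie highest and Il13ra1 lowest, with all its values between 1.33 and 2.54 CPM per kilobase.

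The genes lie at separate places of the genome (build mm10). Il4ra (ENSMUSG00000030748) spans chr7:125552120-125579474 on the plus strand, and 571 bases of its exons overlap the antisense gene Gm44876, which had 0 counts. Il13ra1 (ENSMUSG00000017057) spans chrX:36112110-36171259 on the plus strand and Jak2 (ENSMUSG00000024789) chr19:29251828-29313080 on the plus strand, both without exons shared with another gene. Il2rg (ENSMUSG00000031304) spans chrX:101264378-101268255 on the minus strand and shares 728 exon bases with Gm20489 on the same strand, which had 0 to 2 counts. Jak1 (ENSMUSG00000028530) spans chr4:101152367-101265282 on the minus strand. Jak3 (ENSMUSG00000031805) spans chr8:71676296-71690575 on the plus strand and shares 404 exon bases with Insl3, which had 7 to 14 counts. Tyk2 (ENSMUSG00000032175) spans chr9:21104068-21131243 on the minus strand and overlaps the antisense gene 1700084C06Rik over 554 exon bases, where that gene had 0 counts. How reads of shared bases were counted, and whether strand was used, is not given in the sources used here.

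The ligands were near or at the floor. Il4 had 27, 12 and 8 counts in SE, 24, 23 and 13 counts in SA and 23, 18 and 26 counts in WT. Il13 and Il13ra2, the decoy receptor for IL-13, had 0 counts in all 9 libraries, and 3 counts would have been 0.122 to 0.174 CPM. Il4 did not pass in any comparison in edgeR (0 at an unadjusted p under 0.05, 0 in DESeq2), with a log2 change of -0.23 in SE against SA, -0.36 in SE against WT and -0.12 in SA against WT (standard errors 0.37, 0.36 and 0.35).

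Across the 21 tests of the 7 genes in 3 comparisons, 1 passed an adjusted p under 0.05 in edgeR's quasi-likelihood test. Il13ra1 was lower in SE than in SA. That is 1 of 7 genes in SE against SA, where 10.2% of all 13501 tested genes passed (4.77% higher and 5.42% lower). In SE against WT 0 of 7 passed in edgeR (3 at an unadjusted p under 0.05, 0 in DESeq2), where 5.04% of all genes passed (2.35% higher and 2.69% lower). In SA against WT 0 of 7 passed in edgeR (1 at an unadjusted p under 0.05, 1 in DESeq2), where 4.07% of all genes passed (1.97% higher and 2.1% lower). The comparisons share libraries, so their counts are not independent. The median absolute log2 change of the 7 genes was 0.07 in SE against SA, 0.12 in SE against WT and 0.09 in SA against WT, beside 0.13, 0.12 and 0.09 for all tested genes in the same comparisons.

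**Figure D2:**
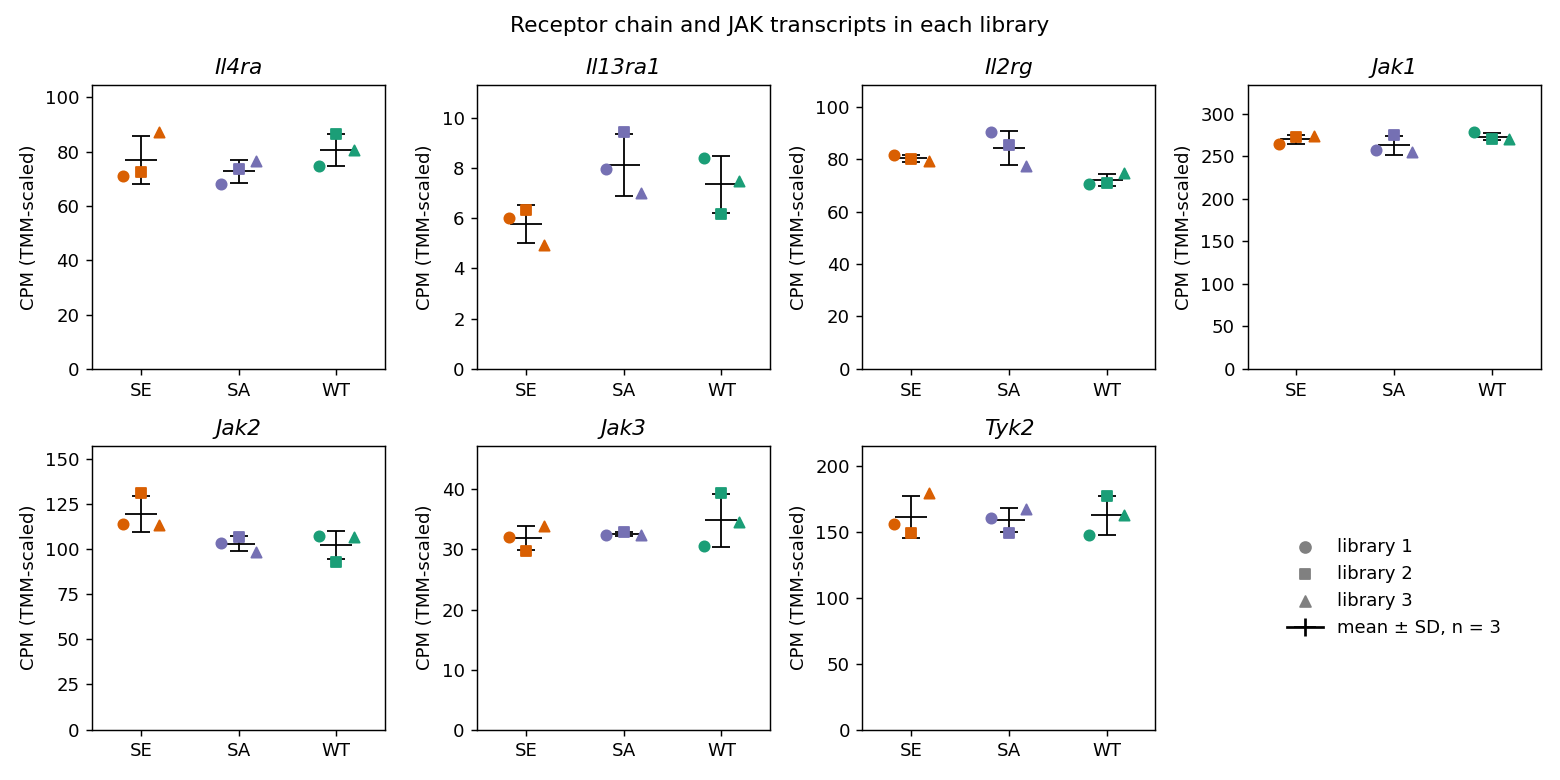
CPM (TMM-scaled, linear axis from 0) of each gene in each library by genotype, with the symbol giving the library number and bars the mean ± SD (n = 3). Il13ra1 lies at 4.92 to 6.34 CPM in SE and at 6.99 to 9.43 CPM in SA, while Jak1 lies between 255 and 278 CPM in all 9 libraries.

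Il13ra1, the chain of the type II receptor, had 6.03, 6.34 and 4.92 CPM in SE, 7.98, 9.43 and 6.99 CPM in SA and 8.39, 6.16 and 7.49 CPM in WT. All SE libraries lay below all SA libraries, and the lowest WT library lay within the SE range. The mean was 5.76 ± 0.75 CPM in SE, 8.13 ± 1.23 CPM in SA and 7.35 ± 1.12 CPM in WT (SD, n = 3 each). Il13ra1 was 1.41-fold lower in SE than in SA (log2 change -0.50 with a standard error of 0.15, 95% interval -0.81 to -0.18, edgeR adjusted p = 0.0429). Against WT the log2 change was -0.36 in SE (interval -0.68 to -0.05, adjusted p = 0.196) and 0.13 in SA (interval -0.17 to 0.43, adjusted p = 0.802). The call rests on 94 to 185 reads per library and did not hold when any of 6 libraries was left out in edgeR: the adjusted p was 0.0989 without SE1, 0.0506 without SE2, 0.147 without SE3, 0.102 without SA1, 0.206 without SA2 and 0.0641 without WT3. Over the alternatives that were run the adjusted p lay between 0.00988 and 0.206, and the change was negative in each. Mesothelial and fibroblast markers, mostly Col1a1 and Col1a2, were also highest in SA. Unlike the mean of Il13ra1, they were higher in SE than in WT. Their part in the level of Il13ra1 was not tested.

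Il4ra, the chain that both receptors share and on which STAT6 docks, had 71.2, 72.6 and 87.2 CPM in SE, 68.2, 73.6 and 76.7 CPM in SA and 74.9, 86.5 and 80.6 CPM in WT. The 3 groups overlapped. The log2 change was 0.08 in SE against SA (95% interval -0.09 to 0.25, edgeR adjusted p = 0.614), -0.07 in SE against WT (-0.24 to 0.11, adjusted p = 0.733) and -0.15 in SA against WT (-0.32 to 0.02, adjusted p = 0.486). None of these passed, and the interval for SA against WT reaches down to -0.32. Il4ra is a known target of STAT6 itself in lymphocytes.

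Il2rg, the common gamma chain, had 81.7, 80.0 and 79.3 CPM in SE, 90.3, 85.3 and 77.5 CPM in SA and 70.6, 71.0 and 74.8 CPM in WT. All SE and all SA libraries lay above all WT libraries, while SE lay within the range of SA. The mean was 80.3 ± 1.26 CPM in SE, 84.4 ± 6.41 CPM in SA and 72.1 ± 2.30 CPM in WT (SD, n = 3 each). The difference of SA from WT was 1.17-fold (log2 change 0.23, 95% interval 0.09 to 0.36) and missed the threshold in edgeR (adjusted p = 0.0652). SE against WT gave a log2 change of 0.16 (interval 0.02 to 0.29, adjusted p = 0.207) and SE against SA -0.07 (interval -0.21 to 0.07, adjusted p = 0.569). Libraries of the 2 groups did not overlap for 1 of the 7 genes in SA against WT and for 2 of 7 in SE against WT, beside 19.3% and 20.5% of all tested genes in the same comparisons.

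Jak1, the kinase of IL4Rα, had 264, 273 and 274 CPM in SE, 258, 276 and 255 CPM in SA and 278, 271 and 271 CPM in WT. Its intervals were the narrowest of the 7 genes, with a 95% interval of the log2 change of -0.07 to 0.15 in SE against SA, -0.13 to 0.10 in SE against WT and -0.17 to 0.06 in SA against WT. The adjusted p in edgeR was 0.719, 0.921 and 0.772.

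Jak2, which serves the type II receptor and many other cytokine receptors, had 114, 131 and 113 CPM in SE, 103, 107 and 98.4 CPM in SA and 107, 93.0 and 107 CPM in WT. All SE libraries lay above all SA and all WT libraries. The mean was 119 ± 10.0 CPM in SE, 103 ± 4.21 CPM in SA and 102 ± 7.97 CPM in WT (SD, n = 3 each). SE was 1.16-fold above SA (log2 change 0.22, 95% interval 0.06 to 0.37, edgeR adjusted p = 0.0718) and 1.17-fold above WT (0.22, interval 0.07 to 0.37, adjusted p = 0.0936), and neither passed. SA and WT differed by a log2 change of 0.01 (interval -0.15 to 0.16, adjusted p = 0.99). In SE against SA, Jak2 and Il13ra1 were the 2 of 7 genes whose libraries did not overlap, beside 28.3% of all tested genes.

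Jak3, the kinase of the common gamma chain, had 32.1, 29.8 and 33.9 CPM in SE, 32.5, 33.0 and 32.3 CPM in SA and 30.6, 39.4 and 34.5 CPM in WT. Tyk2, the other kinase of IL13Rα1, had 156, 149 and 179 CPM in SE, 161, 149 and 167 CPM in SA and 147, 177 and 163 CPM in WT. Both genes overlapped between all groups. For Jak3 the log2 change was -0.03 in SE against SA (95% interval -0.21 to 0.16), -0.12 in SE against WT (-0.30 to 0.06) and -0.09 in SA against WT (-0.27 to 0.09), with edgeR adjusted p of 0.892, 0.515 and 0.771. For Tyk2 it was 0.02 (-0.14 to 0.19), -0.01 (-0.17 to 0.16) and -0.03 (-0.20 to 0.13) in the same order of comparisons, with adjusted p of 0.912, 0.973 and 0.937.

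Within the 4 JAK genes, Jak1 made up the largest share of the summed CPM per kilobase in every genotype. Its share was 41.3 ± 0.43% in SE, 42.3 ± 1.26% in SA and 42.8 ± 1.26% in WT (SD, n = 3 each). Jak2 held 26.2 ± 2.21% in SE, 23.7 ± 0.72% in SA and 23.0 ± 1.99% in WT. Tyk2 held 25.9 ± 2.17%, 26.9 ± 1.84% and 26.8 ± 2.14% in SE, SA and WT, and Jak3 6.58 ± 0.41%, 7.08 ± 0.01% and 7.36 ± 0.85%. The summed level was 90.6 ± 2.47 CPM per kilobase in SE, 86.1 ± 1.06 in SA and 88.3 ± 1.15 in WT. The shares depend on the length used: over the 9 libraries Jak1 held 46.5% and Jak2 18.2% with the longest transcript as length.

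Ratios within a library need no scaling between libraries. They keep any library difference that follows the GC content of the genes, as described below. The Jak2 to Jak1 ratio, in CPM per kilobase, was 0.62, 0.689 and 0.594 in SE, 0.576, 0.557 and 0.554 in SA and 0.553, 0.494 and 0.566 in WT, so SE lay above both other groups in all libraries (exact permutation test, 2-sided, p = 0.1 for SE against SA and for SE against WT, and 0.4 for SA against WT). The Il4ra to Il13ra1 ratio was 8.44 ± 2.18 in SE, 5.63 ± 1.02 in SA and 6.95 ± 1.60 in WT (SD, n = 3 each; exact p = 0.1, 0.4 and 0.3 for SE against SA, SE against WT and SA against WT). The Il4ra to Il2rg ratio was 0.381 ± 0.049 in SE, 0.346 ± 0.046 in SA and 0.445 ± 0.034 in WT (exact p = 0.4, 0.3 and 0.1 in the same order). With 3 libraries against 3 the smallest p is 0.1, so none of these 9 tests could pass 0.05, raw or adjusted. The Il4ra to Il13ra1 ratio was highest in SE3 within SE (10.95) and in WT2 within WT (8.68). The part of GC content in these ratios was not tested.

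The spread between libraries of SE and of WT followed the base composition of the transcripts, and that of SA did so less. SE3 and WT2 differed from the other libraries of their genotype by a median log2 difference of -0.19 and -0.21 over the 2698 tested genes lowest in GC, and of 0.14 and 0.16 over the 2698 highest in GC. SE2 and WT1 sloped the other way, with 0.15 and 0.17 over the genes lowest in GC and -0.11 and -0.12 over those highest. SA1 was nearly flat, at -0.01 and 0.01. In SE3 and WT2 the 7 genes lay along the slope of all tested genes. Il13ra1, with 41.2% GC in its longest transcript, differed by -0.32 in SE3 and by -0.36 in WT2. Jak2, with 44.3% GC, differed by -0.11 in SE3 and by -0.20 in WT2. At the GC-rich end, Il4ra (55.8%) differed by 0.28 in SE3 and 0.16 in WT2, Tyk2 (57.0%) by 0.24 and 0.19, and Jak3 (61.0%) by 0.13 and 0.28. Jak1 (47.6%) and Il2rg (49.0%) lay near 0 in both. Between genotypes the slope was smaller, with median log2 changes in SE against SA of -0.07 over the genes lowest in GC and 0.06 over those highest in GC.

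**Figure D3:**
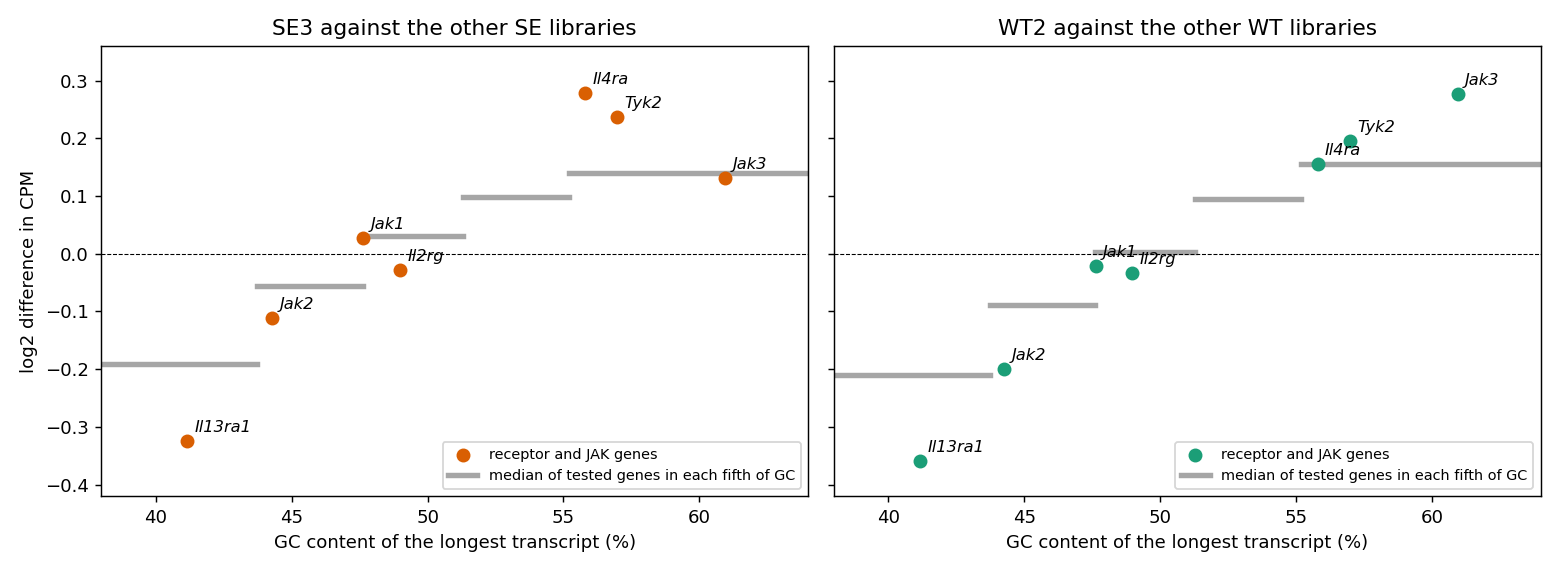
Log2 difference in CPM of library SE3 (left) and library WT2 (right) from the other libraries of the same genotype, against the GC content (%) of each gene's longest transcript. Grey bars are the medians of all tested genes in 5 equal bins of GC, from -0.19 to 0.14 in SE3 and from -0.21 to 0.16 in WT2, and the 7 genes run upward with them.

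An offset that takes a smooth curve on GC content out of each library, chosen after seeing the data, narrowed the intervals, with the biological coefficient of variation at 4.87% in place of 6.75%. With it Il13ra1 was 1.34-fold lower in SE than in SA (log2 change -0.43, edgeR adjusted p = 0.0176). Jak2 passed in SE against SA (1.2-fold higher, log2 change 0.26, adjusted p = 0.000409, over all alternatives 0.000409 to 0.251) and in SE against WT (1.19-fold higher, 0.25, adjusted p = 0.000851, over all alternatives 0.000851 to 0.288). Il2rg passed in SA against WT (1.17-fold higher, 0.23, adjusted p = 0.00666, over all alternatives 0.00666 to 0.354) but not in SE against WT (0.16, adjusted p = 0.0589). Under this offset 15.6% of all tested genes passed in SE against SA, 10.4% in SE against WT and 7.38% in SA against WT, so the number of calls grew for the table as a whole. The offset also takes out any GC-linked difference between genotypes.

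**Figure D4:**
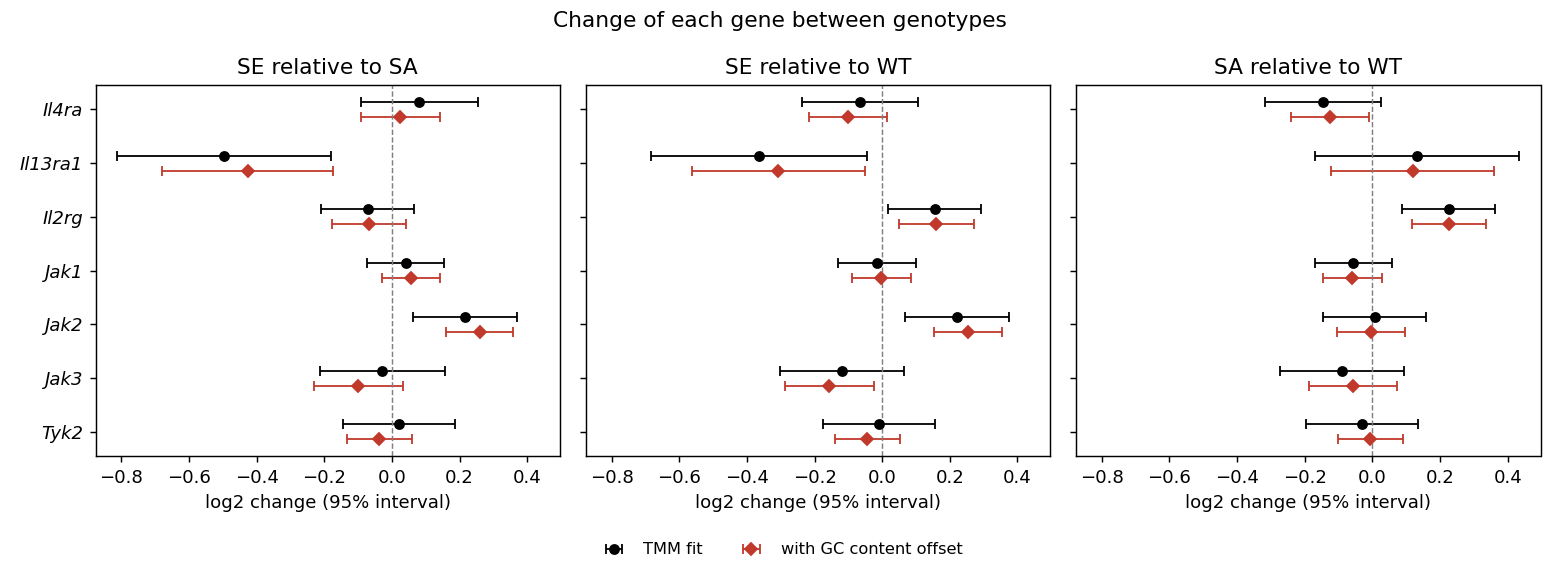
Log2 change of each gene with its 95% interval in SE relative to SA, SE relative to WT and SA relative to WT, from the TMM fit (black circles) and with the GC content offset (red diamonds). The interval of Il13ra1 in SE relative to SA runs from -0.81 to -0.18 in the TMM fit, and Jak2 lies at 0.22 in both comparisons of SE.

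The genes whose profile over the 9 libraries was closest to that of Il13ra1 were Eid1, Suclg2 and Chm, with a mean absolute difference of centred log2 CPM of 0.0503, 0.0634 and 0.0657, among 1681 eligible genes with a median difference of 0.281. Eid1 averaged 48.5 ± 8.04 CPM in SE, 71.6 ± 6.50 CPM in SA and 60.7 ± 9.48 CPM in WT (SD, n = 3 each). The transcript of Chm (37.0% GC) is, like that of Il13ra1, among the 2698 lowest in GC, at up to 43.7%. Those of Eid1 (45.6%) and Suclg2 (44.4%) are in the next bin, of 43.7% to 47.6%. The part of base composition in these profiles was not tested.

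Lists of genes around the receptor step held 91 genes, of which 68 were tested. In SE against SA 10 of them rose and 9 fell, in SE against WT 5 rose and 5 fell, and in SA against WT 2 rose and 4 fell. That is 27.9%, 14.7% and 8.82% of the listed genes tested, beside 10.2%, 5.04% and 4.07% of all tested genes. As calls went both ways, their median log2 change was 0.01, -0.02 and -0.02 in these comparisons. The lists were chosen with earlier results of these data known, and were not matched to all tested genes by level. Their shares, here and for each list below, are therefore a description and not a test. Stat6 itself had 291, 284 and 312 CPM in SE, 195, 200 and 200 CPM in SA and 198, 201 and 187 CPM in WT, with all SE libraries above the rest. It rose 1.49-fold in SE against SA (log2 change 0.58, edgeR adjusted p = 5.15e-06) and 1.51-fold against WT (0.60, adjusted p = 6.27e-06). Stat6 was 1 of 6 tested STAT genes of 7 to pass in these comparisons (16.7% in each, beside 10.2% and 5.04% of all tested genes). In SA against WT 0 of the 6 passed in edgeR (1 at an unadjusted p under 0.05, 0 in DESeq2).

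A list of 21 phosphatases and inhibitors of JAK and STAT signalling, which also held the adaptor Stam2 and the lipid phosphatase Inpp5d, was tested in full. Of the 21 genes 3 rose and 2 fell in SE against SA and 3 rose in SE against WT. In SA against WT 0 passed in edgeR (4 at an unadjusted p under 0.05, 1 in DESeq2), beside 4.07% of all tested genes. The share called was 23.8% in SE against SA and 14.3% in SE against WT, beside 10.2% and 5.04% of all tested genes. Those that rose were Cish, Socs1 and Socs2, which encode SH2 proteins that are induced by STAT proteins and damp JAK signalling. Cish had 22.7, 21.3 and 27.5 CPM in SE, 8.11, 8.10 and 9.66 CPM in SA and 8.27, 7.40 and 9.77 CPM in WT. Its rise in SE was 2.77-fold against SA (adjusted p = 7.55e-07) and 2.80-fold against WT (adjusted p = 1.45e-06), and no SE library overlapped the others. Socs1 averaged 33.6 ± 1.46 CPM in SE, 19.7 ± 0.90 CPM in SA and 20.2 ± 1.30 CPM in WT (adjusted p = 7.49e-06 against SA and 2.45e-05 against WT). Socs2, which the naming rule left out and was named after its values were seen, averaged 12.9 ± 0.30 CPM in SE, 9.32 ± 0.62 CPM in SA and 7.97 ± 0.49 CPM in WT. The 2 that fell in SE against SA were the phosphatases Ptprc (CD45), at 478 ± 36.5 CPM in SE and 628 ± 3.10 CPM in SA, and Ptpn6 (SHP-1), at 274 ± 12.3 CPM in SE and 322 ± 8.15 CPM in SA (SD, n = 3 each; edgeR adjusted p = 0.00114 and 0.0154). The Ptpn6 call did not hold without SE2 (0.0627) or without SA1 (0.0703).

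Of 18 adaptors and kinases downstream of the receptor, 16 were tested. In SE against SA 2 of the 16 fell (12.5%, beside 10.2% of all tested genes), Dok2, an adaptor that restrains signalling, and Pik3cd, a catalytic subunit of PI3-kinase. Dok2 averaged 95.9 ± 4.32 CPM in SE, 127 ± 5.17 CPM in SA and 96.8 ± 1.19 CPM in WT (SD, n = 3 each; edgeR adjusted p = 0.000218 in SE against SA). Dok2 was also the 1 of 16 that rose in SA against WT (1.31-fold, edgeR adjusted p = 0.000454), which is 6.25% beside 4.07% of all tested genes. Pik3cd averaged 177 ± 15.4 CPM in SE, 216 ± 6.59 CPM in SA and 194 ± 16.1 CPM in WT (edgeR adjusted p = 0.0148 in SE against SA). Its call did not hold without SE1 (0.0858), SE2 (0.0616) or SA1 (0.0681). In SE against WT 0 of 16 passed in edgeR (2 at an unadjusted p under 0.05, 0 in DESeq2), beside 5.04% of all tested genes. The most abundant of them, Grb2, had 428 ± 2.71 CPM in SE and 425 ± 2.29 CPM in WT.

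Il2rg also serves the receptors for other cytokines. A list of 13 cytokine and receptor genes was made around these receptors. It also held Tslp and Crlf2, a ligand and a receptor chain that work with Il7r and without Il2rg. Of the 13 genes 6 were tested, Crlf2 among them. In SE against SA 2 rose, in SE against WT 1 fell and in SA against WT 1 fell (33.3%, 16.7% and 16.7%, beside 10.2%, 5.04% and 4.07% of all tested genes). Il7r, the IL-7 receptor chain, had 457, 473 and 407 CPM in SE, 350, 380 and 359 CPM in SA and 509, 429 and 479 CPM in WT. In SE it stood 1.23-fold above SA (edgeR adjusted p = 0.0127), and in SA it stood 1.3-fold below WT (adjusted p = 0.00342). Il21r averaged 99.1 ± 11.5 CPM in SE, 78.5 ± 5.54 CPM in SA and 81.9 ± 8.08 CPM in WT (SE against SA, adjusted p = 0.0193). Il15 averaged 11.3 ± 1.80 CPM in SE and 16.1 ± 1.92 CPM in WT (adjusted p = 0.0183). Each of these calls in SE ended when a library was left out. Il7r missed without SE1 (0.065), SE2 (0.057), SA1 (0.0836) or SA3 (0.061) and with library totals only (0.0622), Il21r without SE3 (0.0784), SA1 (0.105) or SA2 (0.0968), and Il15 without SE3 (0.0719) or WT3 (0.144) and with only the 2 groups in the fit (0.0506).

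Of 29 other receptor genes that signal through these kinases 18 were tested, of which 4 rose and 5 fell in SE against SA, 1 rose and 4 fell in SE against WT, and 1 rose and 3 fell in SA against WT. These are 50%, 27.8% and 22.2% of the 18, beside 10.2%, 5.04% and 4.07% of all tested genes. Lifr, the LIF receptor, had 4.66, 5.06 and 4.45 CPM in SE, 9.65, 11.0 and 11.1 CPM in SA and 6.35, 7.87 and 7.68 CPM in WT, so no groups overlapped. In edgeR it stood 2.24-fold below SA in SE (adjusted p = 1.38e-05) and 1.54-fold below WT (0.00870), and in SA 1.45-fold above WT (0.0115). Mesothelial and fibroblast markers, mostly Col1a1 and Col1a2, were highest in SA as Lifr was (34.8 to 39.5 CPM). They were higher in SE (5.96 to 9.61 CPM) than in WT (2.60 to 3.96 CPM), where Lifr was lower in SE. Their part in the level of Lifr was not tested. The Lifr call in SE against WT did not hold without WT3 (0.0621), and that in SA against WT did not hold without SA2 (0.0554), SA3 (0.0596) or WT1 (0.067). Il11ra1, the IL-11 receptor, ran the other way, with 163, 145 and 173 CPM in SE, 111, 105 and 107 CPM in SA and 132, 135 and 140 CPM in WT. In SE it stood 1.49-fold above SA (adjusted p = 2.87e-05) and 1.18-fold above WT (0.0411), and in SA 1.26-fold below WT (0.00610). The Il11ra1 call in SE against WT did not hold when any 1 of 7 libraries was left out (SE1, SE3, SA1, SA2, SA3, WT1 or WT3, adjusted p = 0.0587 to 0.158), and its call in SA against WT did not hold without WT3 (0.0567). Csf2rb, the shared chain of the GM-CSF, IL-3 and IL-5 receptors, which bind JAK2, averaged 2130 ± 145 CPM in SE, 1570 ± 41.3 CPM in SA and 1949 ± 102 CPM in WT (adjusted p = 0.000195 in SE against SA and 0.00630 in SA against WT, the second not held without SA1 at 0.0617). Csf2rb has a near-identical copy, Csf2rb2, so reads may be split between them. Il12rb2, an IL-12 receptor chain, averaged 4.53 ± 0.23 CPM in SE, 7.35 ± 1.35 CPM in SA and 6.96 ± 0.54 CPM in WT (adjusted p = 0.00481 against SA and 0.0191 against WT). Its call against WT did not hold without SE1 (0.0788), SE2 (0.0619) or WT3 (0.0558).

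**Figure D5:**
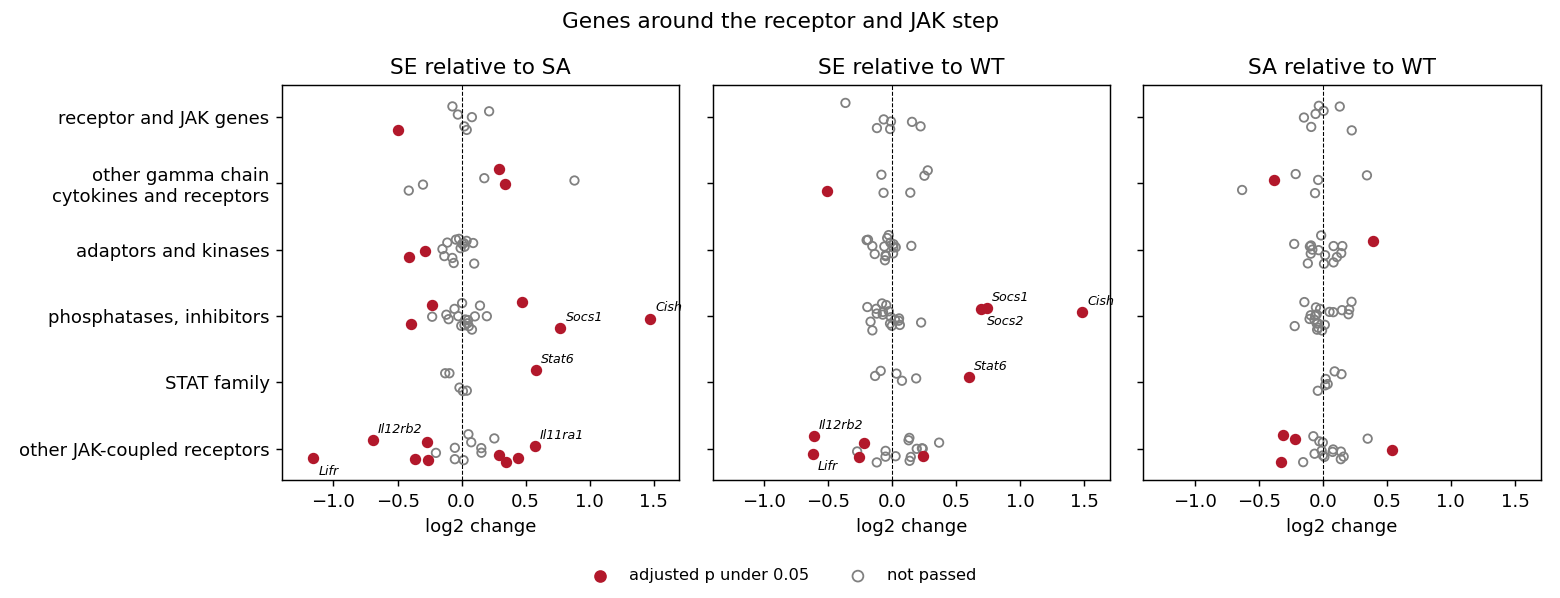
Log2 change of each tested gene of the receptor and JAK set and of the lists around it, without the ligand Il4. Panels give SE relative to SA, SE relative to WT and SA relative to WT. Filled red points have an edgeR adjusted p under 0.05 and open points are the rest. Cish (1.47 and 1.48) and Stat6 (0.58 and 0.60) lie to the right in both comparisons of SE, while the receptor and JAK genes lie between -0.50 and 0.23.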

How the data were processed

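Poly(A) RNA of peritoneal macrophages was sequenced in 9 libraries, 3 per genotype, grouped by the titles. The deposited table holds raw counts of reads per Ensembl gene, as made by the authors with HISAT2 2.1.0 and featureCounts on mm10, per the submitters' processing notes. For annotation release, strand setting and multi-mapped reads the sources used here give nothing. Of 55401 IDs, 55141 matched GENCODE M21, which gave symbols, positions and lengths.

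Genes were kept by filterByExpr (minimum count 10, minimum total 15), which left 13501. Libraries were scaled by TMM and fitted together with edgeR 4.0.16 in R 4.3.3 (robust quasi-likelihood, genotype as the only factor). Calls are at an adjusted p under 0.05, with the Benjamini-Hochberg adjustment taken over the whole table, and the code was tested on simulated data. CPM use TMM-scaled library sizes, and CPM per kilobase divide by the union of a gene's exons. Marker levels and floors use library totals without the TMM scaling. At library totals of 17286617 to 24618608, counting error limits Il13ra1 most of the 7 genes, and floors cover counting error only. DESeq2 1.42.0, other scalings and filters, a replicate block and left-out libraries were tried.

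The genes and lists were chosen with earlier results of these data known. Of each list the text names the 2 genes called higher and the 2 called lower with the largest change in each comparison among genes of at least 1 CPM, and the most abundant gene where none was called. For Il13ra1 the 3 most similar profiles were taken among genes of at least 5 CPM and a 1.2-fold range of genotype means, leaving out predicted genes. No 2 libraries of a genotype agreed within sampling noise. The result of 1 marker list is not reported here.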

Additional observations from a re-analysis of the deposited data

How the results depend on the processing

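Of 420 values that the alternatives gave for the 21 member comparisons, 376 kept their direction and their side of the threshold, 7 lost the Il13ra1 call, 14 gained a call and 23 changed sign. The number of the 7 genes called in SE against SA was 1, and 2 with no filter on low counts and with the GC content offset (0 to 2 when each library was left out). In SE against WT it was 0, and 1 with no filter and with the GC offset. In SA against WT it was 0, and 1 with library totals only, with no filter, with the GC offset, without WT2 and SE3 together and with DESeq2 (0 to 1 when each library was left out). The genes gained were Jak2 in both comparisons of SE and Il2rg in SA against WT. The Il13ra1 call was also lost without WT2 and SE3 together (edgeR adjusted p = 0.0641). Sign changes were all in uncalled values near 0. In SE against SA the log2 change of Jak1 was -0.0052 with library totals, that of Tyk2 was -0.024 with library totals, -0.038 with the GC offset and -0.062 without WT2 and SE3 together (-0.061 to 0.076 when each library was left out), that of Il4ra -0.019 without WT2 and SE3 together (-0.018 to 0.13), and that of Jak3 0.012 without WT1 and SE2 together (-0.073 to 0.018). In SE against WT, leaving out each library gave -0.025 to 0.00027 for Jak1 and -0.092 to 0.057 for Tyk2. In SA against WT, Jak2 had -0.0046 with the GC offset and -0.054 without WT2 and SE3 together (-0.056 to 0.042), Jak3 0.0060 without WT2 and SE3 together (-0.18 to 0.0034) and Tyk2 0.038 without WT2 and SE3 together (-0.096 to 0.036). The share of Jak1 among the JAK genes was 42.1% over the 9 libraries, and 46.5% with the longest transcript and 41.0% with unshared exon bases, and that of Jak2 was 24.3%, and 18.2% with the longest transcript. Of 540 values for 27 named pathway results, 502 kept their call, 38 lost it in 11 results and 0 changed sign. A replicate block left the counts of called members at 1, 0 and 0, and the Il11ra1 call in SE against WT was lost with it (adjusted p = 0.055). Libraries of the same number did not deviate together (correlations of -0.195 to 0.105 in 9 pairs, and -0.261 to 0.270 in 18 pairs of other numbers). The cause of these changes was not tested. Among the 7 receptor and JAK genes, depth limits Il13ra1 most, at 94 to 210 reads per library.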
